A study of Mus musculus with 8 samples.

Results

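The genes described here encode the machinery that carries newly made proteins from the endoplasmic reticulum (ER) to the Golgi. Members were chosen by symbol alone, as every gene named *Sec* plus a digit, *Copa* to *Copz*, *Tmed*, *Trappc*, *Arf1* to *Arf6*, *Golga*, *Sar1a*, *Sar1b* or *Mia3*. The rule found 71 of the 14608 genes in the expression table. The polyadenylated RNA came from the outflow tract (OFT), the vessel that leaves the embryonic heart, of mouse embryos at embryonic day 11.5 (E11.5). The comparison was of 4 control libraries with 4 libraries of double heterozygotes that carried the missense allele *Mib1*V943F and the nonsense allele *Gata6*STOP (Mib1V943F/+ Gata6STOP/+). Both alleles are germline mutations present in every cell of the embryo, and neither single heterozygote was analysed here. Each library was a pool of 3 individuals per the labels, while the study's methods describe another pooling, and the controls are labelled WT or Control with no allele named. Replicates were separate pools, so p-values measure the spread between pools.

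Depth ranged from 10669420 reads on the listed genes in control replicate 2 to 30469165 in mutant replicate 3. RNA of the targeted genes did not separate the groups. *Gata6* read 262 ± 18.5 CPM (reads scaled to a common library size; SD, n = 4) in controls and 249 ± 36.1 in mutants (limma adjusted p = 0.752), and *Mib1* 122 ± 15.6 and 128 ± 6.62 CPM (adjusted p = 0.746). A missense allele need not lower its RNA. For the nonsense allele the study predicted less *Gata6* RNA. Its discussion reports quantitative PCR that found *Gata6* RNA at that predicted lower level in these double heterozygotes. The log2 fold change of *Gata6* was -0.079 here (95% interval -0.29 to 0.14), and 2 of the 4 mutant libraries lay within or above the control range. Its level in these libraries thus did not show the predicted lower level and differs from the study's quantitative PCR. Reads were not separated by allele, so the genotype cannot be read from this level. The reason for the difference was not tested. The libraries are therefore called mutant-labelled, or mutant for short, and each direction below is a direction between labels. The tissue contained cardiomyocyte, cushion, smooth muscle and endocardial RNA, and 9 of 10 cardiomyocyte markers were lower in all 4 mutant-labelled libraries than in any control (3.90% of all genes). Their summed level was 25463 to 29754 CPM in controls and 20093 to 23988 CPM in mutants. In such bulk tissue, fewer cells of a type and less RNA per cell cannot be told apart.

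Secreted and membrane proteins enter the ER through the SEC61 translocon. They leave it in vesicles coated by COPII, which the small GTPase SAR1 recruits to exit sites organised by SEC16. TRAPP complexes and golgins catch vesicles at the Golgi, p24 proteins (TMED) ride in both directions, and the COPI coat, recruited by ARF GTPases, returns escaped ER proteins. The pathway serves every cell, and it carries large loads in cells that secrete matrix, such as the cushion mesenchyme from which valves form.

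The members differed little between the groups. Values were compared as log2(CPM + 0.5) with limma, which fits all genes together, and p-values were adjusted over all 14608 genes by the Benjamini-Hochberg method. No member passed an adjusted p of 0.05 (0 of 71). The same held for the whole table, where 0% of genes passed and the smallest adjusted p was 0.124, while 1763 genes had an unadjusted p under 0.05. Counted without adjustment at p under 0.05, 5 members (7.04%) were higher in mutant-labelled libraries, *Sar1a*, *Sec23b*, *Arf2*, *Copb1* and *Sec16b*, against 5.45% of all genes. A single member (1.41%), *Sec31b*, was lower, against 6.62% of all genes. The 4 mutant-labelled values lay above all 4 control values in 3 members (*Sar1a*, *Sec23b*, *Trappc6b*), where 3.20% of all genes did so, and below them in 2 (*Sec31b*, *Trappc9*), where 3.90% did. All these shares are near the background or below it. Count models run on reads recovered from the CPM called 0 members as well. The edgeR quasi-likelihood test called 0 genes, the edgeR likelihood ratio test 0.178% of genes higher and 0.554% lower, and DESeq2 0.372% higher and 1.16% lower. The log2 fold change was positive in 43 of 71 members, compared with 50.4% of all genes, and its median was 0.052 over the members and 0.0010 over all genes. In 66 members the estimate lay within 0.2 of zero on the log2 scale. The study, which modelled counts with edgeR, did report genes that differed at an adjusted p under 0.05. It also reported a predefined protein secretion gene set as more significantly enriched in the double heterozygotes than in *Gata6* single heterozygotes. That set was not tested here.

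**Figure D1:**
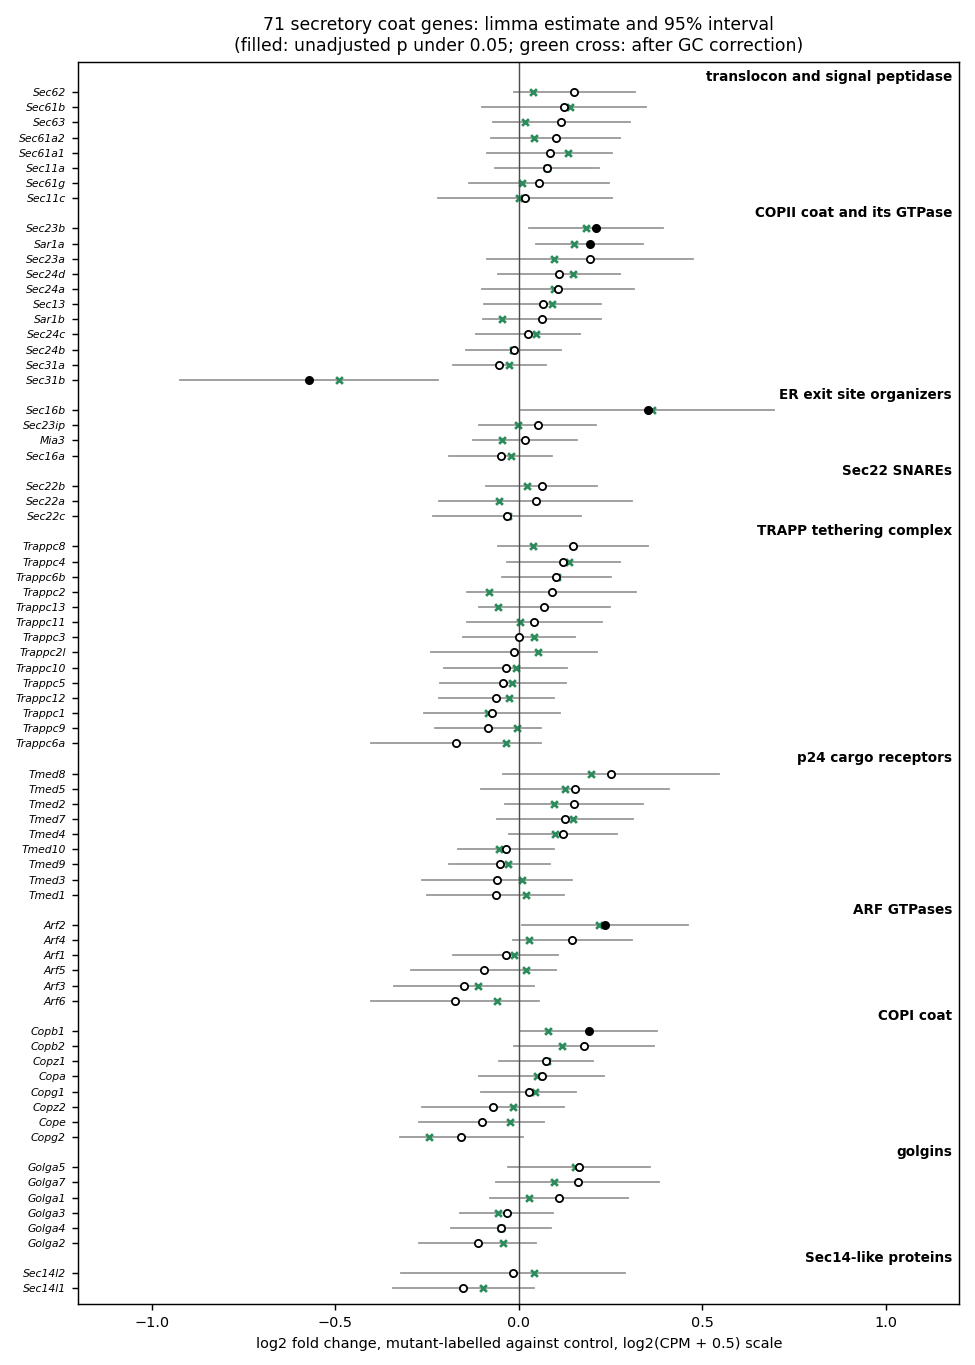
Log2 fold change of each of the 71 secretory coat genes, mutant-labelled against control, on the log2(CPM + 0.5) scale, grouped by class. Circles give the limma estimate with its 95% interval, filled where the unadjusted p was under 0.05 (5 higher, 1 lower), and green crosses give the estimate after removal of each library's trend with GC content. Nearly all circles lie within 0.2 of zero, with *Sec31b* far to the left.

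The promoters of the members were read for short binding motifs. RefSeq promoters (GRCm38.p6, 250 bases before to 50 after each start) were found for 60 member genes, 69 promoters in all, and searched on both strands for 5 motifs. TGACGTGG, the core bound by the ER stress factors ATF6 and XBP1, was found in 7 of 69 member promoters (10.1%), compared with 0.848% of promoters of listed genes and 0.676% of all 32851 promoters. These belong to 6 genes, *Arf1* (where 2 overlapping promoters hold the same site), *Copb1*, *Copb2*, *Sec16b*, *Sec23a* and *Sec24d*. The longer ER stress elements ERSE, which joins CCAAT and CCACG across a fixed spacer, and ERSE-II, a related element that joins ATTGG and CCACG, were in 0 member promoters. The GATA motif AGATAA was in 3 (4.35%, against 6.56% of promoters of listed genes) and TGGGAA, a core of the Notch effector RBPJ, in 15 (21.7%, against 23.2%). A match describes these letters only and does not show that a factor binds. The 5 promoters of the coat and exit site genes with the core are printed 5′ to 3′ on the gene's strand, with the core in capitals (CCACGTCA where it lies on the opposite strand):
Sec23a (chr12:59011968-59012267, minus strand): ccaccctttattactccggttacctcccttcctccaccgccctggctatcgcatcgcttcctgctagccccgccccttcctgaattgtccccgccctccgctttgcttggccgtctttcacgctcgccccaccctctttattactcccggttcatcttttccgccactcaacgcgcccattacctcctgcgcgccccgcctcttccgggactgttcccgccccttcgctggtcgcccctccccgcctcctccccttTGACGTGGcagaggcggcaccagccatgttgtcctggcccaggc
Sec24d (chr3:123267246-123267545, plus strand): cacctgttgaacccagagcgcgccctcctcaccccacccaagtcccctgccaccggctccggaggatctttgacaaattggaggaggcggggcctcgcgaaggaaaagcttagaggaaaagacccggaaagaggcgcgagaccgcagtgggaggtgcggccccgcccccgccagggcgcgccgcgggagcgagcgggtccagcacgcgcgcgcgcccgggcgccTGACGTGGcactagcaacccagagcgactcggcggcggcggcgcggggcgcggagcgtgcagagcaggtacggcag
Sec16b (chr1:157506546-157506845, plus strand): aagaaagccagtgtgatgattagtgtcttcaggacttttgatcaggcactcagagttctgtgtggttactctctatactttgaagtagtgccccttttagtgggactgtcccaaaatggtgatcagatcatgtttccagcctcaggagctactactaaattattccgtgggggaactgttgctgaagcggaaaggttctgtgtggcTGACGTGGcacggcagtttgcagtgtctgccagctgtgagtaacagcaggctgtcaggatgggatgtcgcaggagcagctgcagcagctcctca
Copb1 (chr7:114254631-114254930, minus strand): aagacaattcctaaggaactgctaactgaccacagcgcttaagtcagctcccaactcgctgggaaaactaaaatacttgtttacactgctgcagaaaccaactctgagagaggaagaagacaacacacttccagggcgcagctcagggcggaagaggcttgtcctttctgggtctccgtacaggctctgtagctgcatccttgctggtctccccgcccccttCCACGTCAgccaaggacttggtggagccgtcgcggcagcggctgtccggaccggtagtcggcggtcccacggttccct
Copb2 (chr9:98563481-98563780, plus strand): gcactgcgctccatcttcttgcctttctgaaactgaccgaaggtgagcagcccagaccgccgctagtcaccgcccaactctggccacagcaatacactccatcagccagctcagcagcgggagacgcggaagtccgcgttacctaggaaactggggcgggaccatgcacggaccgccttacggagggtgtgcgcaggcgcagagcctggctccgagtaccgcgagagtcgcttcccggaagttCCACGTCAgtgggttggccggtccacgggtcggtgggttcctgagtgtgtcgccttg

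In these 5 promoters the first base of the core lay at an offset of -44 (*Sec16b*) to 6 (*Sec23a*) bases from the start. Log2 fold changes of the 6 genes had a median of 0.18 and were positive in 5 (50.4% of all genes), with *Arf1* the exception. The median was 0.11 after removal of each library's trend with GC content and 0.078 without mutant replicate 2. Mutant replicate 2 was the highest of the 8 libraries for 5 of the 6. *Sec24d*, highest in mutant replicate 3, was the other. The part of the core in these values was not tested.

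The first class to act is the translocon with its signal peptidase. All 8 members had a positive estimate, with a median log2 fold change of 0.092 and a range of 0.016 in *Sec11c*, a catalytic subunit of signal peptidase, to 0.15 in *Sec62*, which helps small precursors into the channel. None had an unadjusted p under 0.05. Without mutant replicate 2 the class median was 0.054 and 6 of the 8 were positive, with *Sec11c* (-0.047) and *Sec61g* (-0.010) below zero. *Sec61a1*, the pore-forming subunit and the most abundant of the class per length (85.8 CPM per kb of transcript), read 257, 267, 275 and 256 CPM in control replicates 1 to 4 and 251, 324, 275 and 273 CPM in mutant replicates 1 to 4, an order kept below. Mutant replicate 2 stood clear of the controls, replicate 3 lay at their upper end, and the groups overlapped (log2 fold change 0.084 ± 0.078 (SE), 95% interval -0.086 to 0.25, limma adjusted p = 0.662, exact permutation p = 0.400). Its estimate was 0.013 without mutant replicate 2. The class median was 0.040 once the trend with GC content was removed.

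The COPII coat held the members with the clearest separation. *Sar1a* (GRCm38 chr10:61680299-61693297, plus strand) encodes one form of the GTPase that starts the coat. Its levels were 180.0, 183, 177 and 187 CPM in controls and 194, 232, 201 and 205 CPM in mutants. Every mutant-labelled library was above every control, with replicate 2 the highest (log2 fold change 0.19 ± 0.067 (SE), 95% interval 0.048 to 0.34, limma adjusted p = 0.325, exact permutation p = 0.0286). An exact p of 0.0286 is the smallest that 4 against 4 libraries can give. Without mutant replicate 2 the log2 fold change was 0.14, the one member still higher at an unadjusted limma p under 0.05.

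*Sec23b* (chr2:144556229-144590749, plus strand), an inner-coat subunit that acts as the GTPase-activating protein of SAR1, showed the same order. Controls read 54.3, 56.0, 55.4 and 50.9 CPM and mutant-labelled libraries 56.2, 72.7, 63.9 and 59.1 CPM. The gap between the groups was narrow, since mutant replicate 1 lay just above control replicate 2 (log2 fold change 0.21 ± 0.084 (SE), 95% interval 0.027 to 0.39, limma adjusted p = 0.378, exact permutation p = 0.0286). Without mutant replicate 2 the log2 fold change was 0.14, no longer past the unadjusted threshold. Its paralog *Sec23a*, at 140.0, 117, 137 and 141 CPM in controls and 125, 207, 148 and 142 CPM in mutants, had a similar estimate that rested on replicate 2 (0.19 with all libraries, 0.048 without it).

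*Sec31b* (chr19:44516957-44545864, minus strand) was the member with the largest difference and the lowest level. It encodes a second form of the outer-coat rod subunit SEC31. Controls read 2.49, 2.56, 2.54 and 2.16 CPM, which correspond to 69, 27, 63 and 56 reads, and mutants 1.45, 1.43, 1.79 and 1.26 CPM, which correspond to 31, 39, 55 and 33 reads. All mutant-labelled libraries were below all controls (log2 fold change -0.57 ± 0.16 (SE), 95% interval -0.92 to -0.22, limma adjusted p = 0.258, exact permutation p = 0.0286). The difference was -0.56 without mutant replicate 2 and -0.49 after GC correction. Per length *Sec31b* stood at 0.523 CPM per kb against 61.6 for *Sec31a*, the main form, which differed little between the groups (log2 fold change -0.054, 95% interval -0.18 to 0.073).

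The remaining COPII members overlapped between the groups. Among the cargo-binding SEC24 subunits, the log2 fold change ran from -0.014 in *Sec24b* to 0.11 in *Sec24d*. *Sec13*, an outer-coat subunit also found in nuclear pores, was the most abundant per length (90.8 CPM per kb) and had a log2 fold change of 0.064 (95% interval -0.10 to 0.22). Over all 11 members the median was 0.064. It was 0.091 after GC correction and 0.0098 without mutant replicate 2, when *Sec13* was the middle member.

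**Figure D2:**
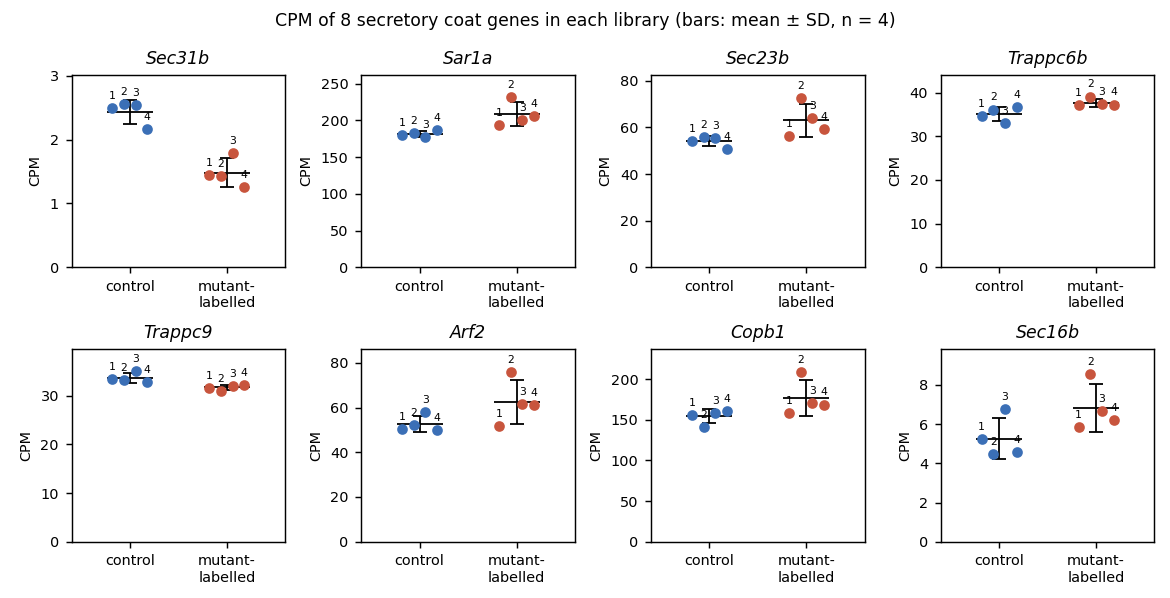
CPM of 8 secretory coat genes in each library, numbered by replicate, with the mean and SD of each group of 4 as bars and each axis starting at 0. The groups do not overlap for *Sec31b*, *Sar1a*, *Sec23b*, *Trappc6b* and *Trappc9*, and mutant replicate 2 is the highest point for *Sar1a*, *Sec23b*, *Trappc6b*, *Arf2*, *Copb1* and *Sec16b*.

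Of the 4 ER exit site organisers, *Sec16b* (chr1:157506728-157568425, plus strand), the shorter form of the exit site scaffold, read 5.22, 4.46, 6.78 and 4.59 CPM in controls and 5.84, 8.57, 6.70 and 6.21 CPM in mutants. Control replicate 3 lay inside the mutant range (log2 fold change 0.35 ± 0.16 (SE), 95% interval 0.0052 to 0.70, limma adjusted p = 0.411, exact permutation p = 0.114). Without mutant replicate 2 its log2 fold change was 0.24 and did not pass the unadjusted threshold. The long form *Sec16a*, at 14.2 CPM per kb against 1.37 for *Sec16b*, had a log2 fold change of -0.049. *Mia3*, which loads bulky cargo such as collagen into COPII carriers, read 123, 107, 107 and 108 CPM in controls and 115, 110.3, 111 and 113 CPM in mutants. The mutant-labelled values lay within the control range, which control replicate 1 sets at its upper end (log2 fold change 0.016, 95% interval -0.13 to 0.16).

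The 3 *Sec22* genes, SNAREs that fuse vesicles with their target, and the 14 TRAPP subunits showed small differences of either sign. *Sec22b* led its class per length (74.5 CPM per kb) with a log2 fold change of 0.062 (95% interval -0.089 to 0.21). Of the TRAPP genes, 7 were positive and 7 negative, and the class median was -0.0065. *Trappc6b* (chr12:59043092-59061472, minus strand), a small core subunit, read 34.6, 36.1, 33.1 and 36.7 CPM in controls and 37.1, 39.1, 37.4 and 37.3 CPM in mutants. The groups did not overlap, yet control replicate 4 and mutant replicate 1 were nearly equal (log2 fold change 0.10 ± 0.068 (SE), 95% interval -0.046 to 0.25, limma adjusted p = 0.547, exact permutation p = 0.0286). *Trappc9* (chr15:72589620-73061204, minus strand), a large subunit of the TRAPPII form, ran the other way. It read 33.4, 33.3, 35.2 and 32.8 CPM in controls and 31.6, 30.9, 32.0 and 32.3 CPM in mutants, again with a narrow gap (log2 fold change -0.084 ± 0.067 (SE), 95% interval -0.23 to 0.061, limma adjusted p = 0.603, exact permutation p = 0.0286). After GC correction the *Trappc9* difference was -0.0064. *Trappc1*, the most abundant of the class per length (75.8 CPM per kb), overlapped between the groups (log2 fold change -0.073, 95% interval -0.26 to 0.11).

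The p24 cargo receptors spanned a wide range of levels per length. Of the 9, *Tmed10*, *Tmed2*, *Tmed7* and *Tmed9* were among the 7 highest of all members, and *Tmed8* was among the lowest (2.32 CPM per kb). *Tmed10*, at 217 CPM per kb, and *Tmed2*, at 129, lead the family and pair with each other in p24 complexes. *Tmed10* read 235, 232, 220.5 and 234 CPM in controls and 211, 236, 224 and 228 CPM in mutants, with full overlap (log2 fold change -0.036, 95% interval -0.17 to 0.095). The class split into members with positive estimates between 0.12 (*Tmed4*) and 0.25 (*Tmed8*) and others between -0.063 (*Tmed1*) and -0.036 (*Tmed10*). The 5 with positive estimates were *Tmed2*, *Tmed4*, *Tmed5*, *Tmed7* and *Tmed8*, and none of the 9 had an unadjusted p under 0.05. The split was not kept after GC correction. Then 7 of the 9 were positive (49.8% of all genes), with *Tmed1* at 0.020 and *Tmed3* at 0.0089.

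*Arf2* (chr11:103966739-103985337, plus strand), a class I ARF GTPase, read 50.6, 52.3, 57.9 and 49.9 CPM in controls and 51.6, 75.7, 61.7 and 60.9 CPM in mutants. Mutant replicate 1 lay within the control range and the other 3 above it (log2 fold change 0.23 ± 0.10 (SE), 95% interval 0.0083 to 0.46, limma adjusted p = 0.404, exact permutation p = 0.0857). Leaving out mutant replicate 2 gave 0.14, short of the unadjusted threshold. *Arf1*, the main recruiter of COPI and the highest of all 71 members per length (236 CPM per kb), read 452, 479, 444 and 435 CPM in controls and 422, 481, 431 and 433 CPM in mutants. It overlapped between the groups (log2 fold change -0.036, 95% interval -0.18 to 0.11). *Arf3* and *Arf6*, the latter acting at the plasma membrane, had negative estimates of -0.15 and -0.17. Mutant replicate 2 was the lowest library for both (109 and 42.1 CPM). Without that library the estimates were -0.053 and -0.11, and after GC correction of all libraries -0.11 and -0.058.

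In the COPI coat, the beta subunit *Copb1* (chr7:114215559-114254711, minus strand) read 156, 141, 158 and 161 CPM in controls and 158, 208, 171 and 169 CPM in mutants. Mutant replicate 1 lay within the controls, and replicate 2 was far above all others (log2 fold change 0.19 ± 0.086 (SE), 95% interval 0.0039 to 0.38, limma adjusted p = 0.409, exact permutation p = 0.0571). The log2 fold change was 0.11 without that library and 0.080 after GC correction, in both cases short of the unadjusted threshold. *Copb2*, the beta-prime subunit, showed a similar order at 238, 226, 230.1 and 237 CPM in controls and 233, 319, 258 and 249.6 CPM in mutants (log2 fold change 0.18, exact permutation p = 0.0857). Both genes carry the promoter core shown above. *Arf1* carries it too, with an estimate of -0.036 whose 95% interval (-0.18 to 0.11) spans zero. The part of the core in these levels was not tested.

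The gamma subunits did not separate the groups. *Copg1*, the most abundant COPI gene per length (96.2 CPM per kb), read 248, 242, 250.1 and 225 CPM in controls and 242, 250.2, 239.8 and 250.1 CPM in mutants (log2 fold change 0.027, 95% interval -0.10 to 0.16). *Copg2* read 82.1, 85.8, 72.0 and 80.3 CPM in controls and 79.8, 68.7, 68.5 and 69.9 CPM in mutants, where replicates 2 to 4 lay below every control and replicate 1 among them (log2 fold change -0.16, 95% interval -0.32 to 0.010, exact permutation p = 0.0571). With GC correction *Copg2* was at -0.25. The log2 ratio of *Copg2* to *Copg1* averaged -1.59 in controls and -1.78 in mutants, and the groups overlapped.

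Among the golgins, grouped by symbol and most of them coiled-coil tethers of the Golgi surface, 3 of 6 estimates were positive. *Golga7*, whose product is a partner of a palmitoyl transferase, led per length (60.6 CPM per kb) and read 110.1, 96.3, 99.9 and 120.4 CPM in controls and 111, 146, 114 and 108 CPM in mutants. Mutant replicate 2 alone lay above the controls (log2 fold change 0.16, 0.062 without it). *Sec14l1* and *Sec14l2*, lipid-transfer proteins that match the naming rule without being coat parts, had estimates of -0.15 and -0.017.

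In most classes, though not all, the members were high in mutant replicate 2. It was the highest of the 8 libraries in 40 of 71 members (56.3%), compared with 27.3% of all genes. The median deviation of the members from their mean over the 8 libraries was 0.13 (log2) there and between -0.056 and 0.0063 in the other 7. By class, it had the highest median deviation of the 8 libraries in 7 of 10 classes. Control replicate 1 was just above it in the exit site organisers (0.088 against 0.086), and it was the lowest library in the ARF GTPases (-0.050) and the Sec14-like proteins (-0.15). Summed over members, it held 7825 CPM, against 6945 to 7280 CPM in the other mutants and 6991 to 7167 CPM in controls. Without this library the median log2 fold change of the members was -0.0039, 35 of 71 were positive, and at an unadjusted p under 0.05 1 was higher (3.64% of all genes) and 2 lower (5.46%). The same library had the highest summed levels of epicardial markers (559 CPM against 324 to 443 in the other 7), macrophage markers (71.3 against 46.3 to 57.4), erythroid markers (5213 against 1437 to 4416) and cushion mesenchyme markers (8717 against 6708 to 8398). The cushion sum was not borne out by most of its list. Only 3 of its 10 markers were highest there, and their median deviation (0.075) was below that in mutant replicates 3 (0.10) and 4 (0.12). Mutant replicate 2 had the lowest sums of cardiomyocyte markers (20093 against 21770.2 to 29754), second heart field markers (343 against 357 to 419) and markers of neural crest, glia and neurons (86.8 against 90.1 to 132). Single markers were lowest there in 7 of 10, 2 of 6 and 2 of 6 measured. The second heart field sum hid a median deviation of 0.088 in this library, above all 4 controls (-0.23 to -0.017). For endocardium, smooth muscle and pharyngeal epithelium its sums lay within the range of the other 7, though only 2 of the 8 pharyngeal markers were measured. The part of these in the members' levels was not tested.

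**Figure D3:**
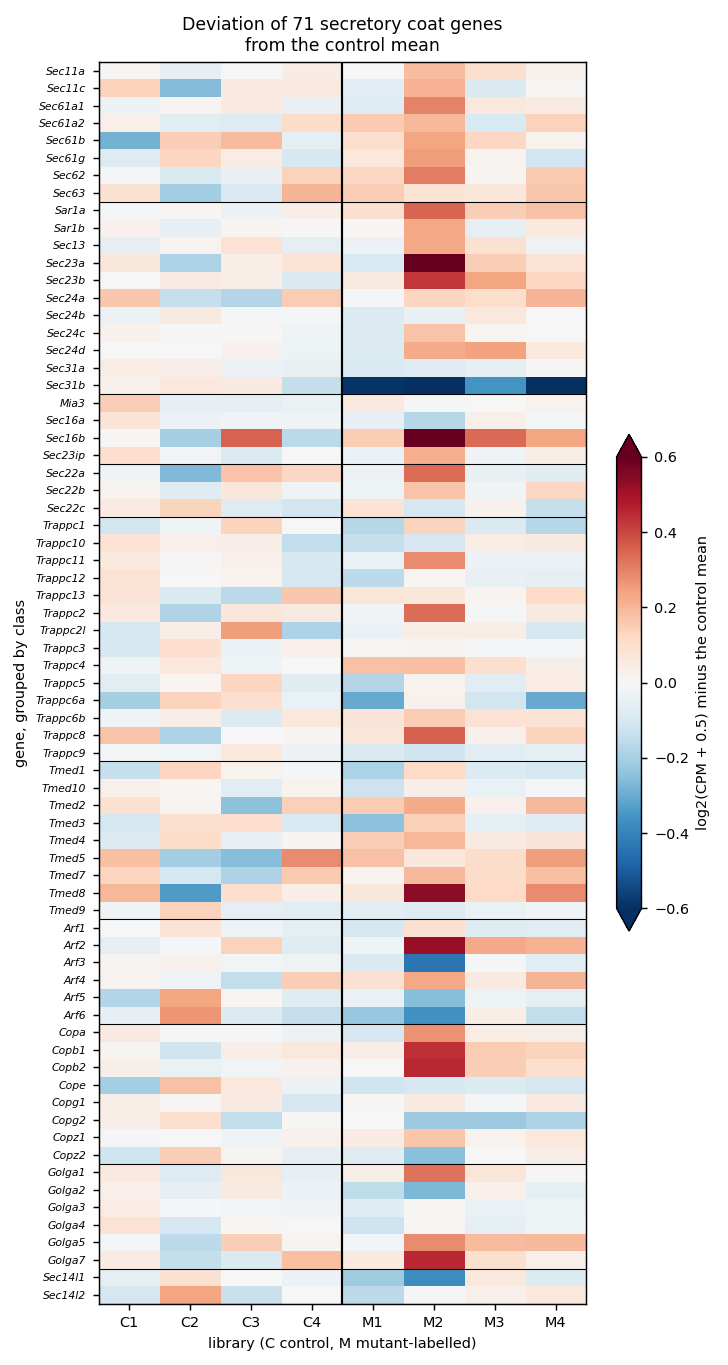
Deviation of log2(CPM + 0.5) from the control mean for the 71 secretory coat genes (rows, separated by class) in each of the 8 libraries (C, control, and M, mutant-labelled, by replicate). Red is above and blue below the control mean, and the M2 column is the most red, while *Sec31b* is blue in all 4 mutant-labelled columns.

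The members' estimates also followed the GC content of their transcripts. Over all genes, the log2 deviation per 10 points of GC was 0.22 in control replicate 2, 0.11 in control replicate 3 and -0.18 in mutant replicate 2, and lay between -0.055 and 0.023 in the other 5 libraries. Among the 24 members of lowest GC content (37.5% to 48.2%), 23 had a positive estimate, compared with 73.7% of all genes in that range. In the middle group of 23 (48.4% to 51.9%), 16 were positive (69.6%), compared with 50.3% of all genes in that range. The median log2 fold change of that group was 0.075, against 0.00051. Of the 24 of highest GC content (52.0% to 62.4%), 4 were positive, compared with 28.7%. Across the 71 members, Pearson's r of GC content with log2 fold change was -0.58 and Spearman's rho -0.64, against -0.37 and -0.46 across all genes. Genes are not independent replicates and share the 8 libraries, so these are descriptions.

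With each library's GC trend removed, the median log2 fold change of the members was 0.020, 42 of 71 were positive (49.8% of all genes), 5 were higher at an unadjusted p under 0.05 (4.67%) and 2 lower (6.32%). The corrected log2 fold changes of *Sar1a* (0.15), *Sec23b* (0.18), *Arf2* (0.22), *Sec16b* (0.36) and *Sec31b* (-0.49) stayed past the unadjusted threshold. *Copb1* did not, and *Trappc4* (0.14) and *Copg2* passed it.

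**Figure D4:**
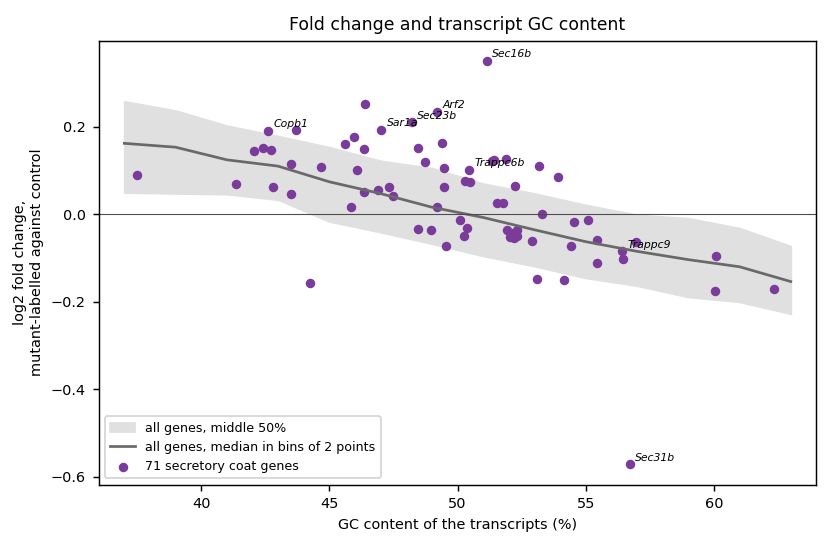
Log2 fold change (mutant-labelled against control) of the 71 secretory coat genes against the GC content of their transcripts in percent. The grey line is the median and the band the middle 50% of all genes in bins of 2 points. Most members follow the falling line, while *Sec31b* lies far below it and *Sec16b* above it.

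**Figure D5:**
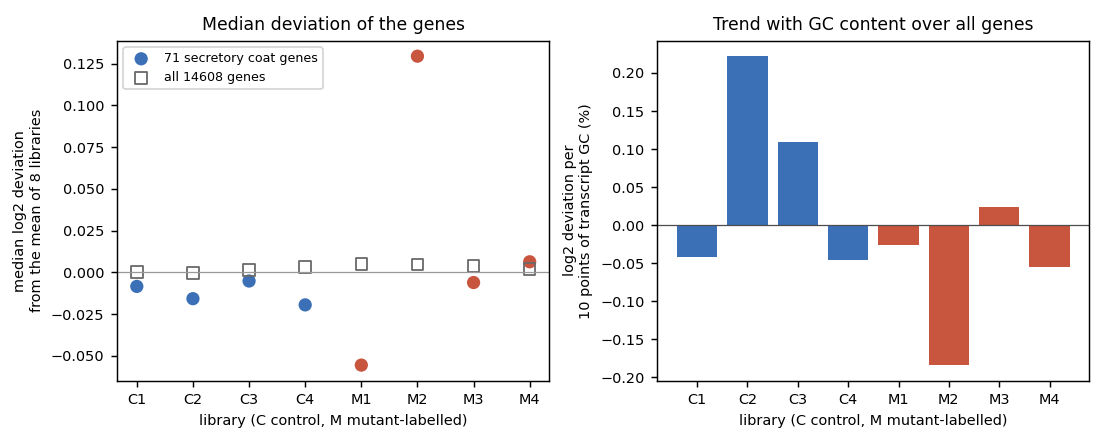
Left, the median log2 deviation of the 71 secretory coat genes (filled circles) and of all 14608 genes (open squares) from each gene's mean over 8 libraries, by library. Right, the trend of log2 deviation with transcript GC content over all genes, per 10 points, as bars. Mutant replicate 2 has the highest member median (0.13) and the most negative trend (-0.18).

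Paralogs were then compared within libraries, as the log2 ratio of their CPM in 14 pairs picked after values were seen, so they are given without a test. The groups did not overlap in 2 of the 14 pairs, where 3.20% of all single genes were higher and 3.90% lower without overlap. In both pairs the first-named gene, *Sar1a* or *Sec31b*, had already separated the groups, so these ratios are not separate support. The ratio of *Sar1a* to *Sar1b* averaged 1.83 ± 0.053 (SD, n = 4) in controls and 1.96 ± 0.049 in mutants. That of *Sec31b* to *Sec31a* averaged -6.74 ± 0.096 and -7.41 ± 0.23. *Sec23b* to *Sec23a* was level, at -1.30 ± 0.17 and -1.28 ± 0.15, and both genes were highest in mutant replicate 2.

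Levels per length spanned the class boundaries. *Arf1*, *Tmed10*, *Arf4* (156 CPM per kb), *Tmed2*, *Arf5* (111), *Tmed7* (109) and *Tmed9* (104) exceeded 100 CPM per kb, and none of these 7 had an unadjusted p under 0.05. *Sec31b*, *Sec14l2* (1.35) and *Sec16b* had the lowest levels. Every member was above 1 CPM in all 8 libraries, so none was listed through a single group.

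Other genes of the pathway, listed by function, gave a similar picture. Of 116 measured, 0 passed adjustment. At an unadjusted p under 0.05, 8 were higher (6.90%, against 5.45% of all genes) and 3 lower (2.59%, against 6.62%). The estimate was positive in 71 (61.2%, against 50.4% of all genes), with a median log2 fold change of 0.030. GC correction left 1 higher, *Stx18* (4.67% of all genes were higher), and 3 lower (6.32% of all genes). Without mutant replicate 2 there were 2 higher (3.64% of all genes) and 2 lower (5.46%). Mutant replicate 2 was the highest library for 47 of them (40.5%, against 27.3% of all genes). *Bet1*, a SNARE of ER to Golgi vesicles, averaged 27.0 ± 2.21 CPM (SD, n = 4) in controls and 33.6 ± 3.99 CPM in mutants, with no overlap (log2 fold change 0.31, limma adjusted p = 0.284). *Stx18*, a SNARE that receives COPI vesicles at the ER, read 20.8, 20.5, 19.1 and 20.1 CPM in controls and 24.4, 22.6, 22.1 and 23.9 CPM in mutants, with no overlap (log2 fold change 0.20, limma adjusted p = 0.356). *Ssr3*, a subunit of the translocon-associated complex, had a log2 fold change of 0.23. The 3 lower at the unadjusted threshold were *Dad1*, a subunit of oligosaccharyl transferase (log2 fold change -0.21, no overlap), *Lman2*, a lectin cargo receptor (-0.14), and *Cog7*, a Golgi tether subunit (-0.25). The 25 genes of the ER stress response had 1 higher (4.0%, against 5.45% of all genes) and 0 lower (against 6.62%) at that threshold, with a median of 0.028. The one higher, *Dnajc3*, an ER co-chaperone, no longer passed after GC correction or without mutant replicate 2.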

How the data were processed

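RNA-seq of 8 OFT libraries (polyadenylated RNA, stranded library kit) was analysed as deposited. Per the labels, the authors used cutadapt, RSEM on GRCm38 and edgeR. The deposited values are CPM that the authors normalised by the TMM method after keeping genes with 1 CPM in at least 3 samples. RSEM shares reads between similar genes, so paralogs can exchange reads. CPM were tested as log2(CPM + 0.5) with limma 3.58.1 (R 4.3.3, eBayes with trend) over all 14608 genes, 4 control against 4 mutant-labelled libraries, with no other term. This scale understates changes of low genes. The study modelled counts with edgeR, which could not be applied to CPM. A step fitted to each column gave whole reads for 100% of values within 0.01 reads. A simpler search that takes the smallest value as a single read found them in 3 of the 8 columns. Counts were therefore used only for alternatives (edgeR 4.0.16, DESeq2 1.42.0) and as read numbers. The fits were tested on simulated data with changes larger than most estimates of the members. Their power for changes that small was not measured. Single values were tested by two-sided exact permutation over 70 relabellings, which cannot give a p below 0.0286. No 2 libraries agreed within sampling noise (chi-square per gene 6.67 to 33.7 within groups).

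Transcript GC content and length are medians over coding transcripts of the GENCODE M21 basic set (GRCm38), available for 14594 genes. That set replaced all coding transcripts after values were seen, since short fragments distorted lengths, and this changed which gene leads per length in 4 of 10 classes. Members and gene lists were chosen with earlier results of these data known. Genes named are those with an unadjusted p under 0.05 or no overlap between groups, the most abundant per length of each class, and for other pathway genes up to 3 per direction. *Copb2*, *Copg2*, *Sec23a* and the other members named were chosen after their values were seen. The fixed lists also held *Trappc2b*, *Trappc3l*, *Trappc14*, *Tmed6*, *Tmed11*, *Golga7b* and *Sec14l3* to *Sec14l5*, which are not among the listed genes.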

Additional observations from a re-analysis of the deposited data

Results flagged for a closer look

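Each group of 4 libraries was examined for a library far from the other 3 in the 18 rule-named members. Of 36 groups, 3 held such a library, where chance gives about 1 in 20. *Mia3* was highest in control replicate 1 (123 CPM, the other controls 107, 107 and 108). *Trappc6b* was highest in mutant replicate 2 (39.1 CPM, the other mutants 37.1, 37.4 and 37.3). *Golga7* was highest in the same library (146 CPM, the other mutants 111, 114 and 108).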

How the results depend on the processing

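No setting called a member at an adjusted p under 0.05, and DESeq2 gave *Sec31b* no adjusted p. By comparison, the edgeR quasi-likelihood test called 0 of all genes, the edgeR likelihood ratio test 26 higher and 81 lower, and DESeq2 47 higher and 147 lower; the smallest adjusted p of a member was 0.272, 0.124 and 0.159 in these tests. At an unadjusted p under 0.05, the number of higher members (5) was 8 without the TMM factor, 3 with the replicate number as a block, 3 with the replicate block and GC correction, and 1 to 9 when libraries were left out in turn (1 without mutant replicate 2, 2 without mutant replicate 3 or 4, 3 without control replicate 1 or 2, 9 without mutant replicate 1). The number of lower members (1) was 0 among genes of at least 5 CPM, where *Sec31b* is not tested, 2 with GC correction, with the replicate block and GC correction and with length correction, and 1 to 3 when libraries were left out (2 without control replicate 1 or 3 or mutant replicate 1 or 2, 3 without mutant replicate 3). The share of all genes moved with the setting as well. It was 5.45% higher and 6.62% lower in the main fit, 4.67% and 6.32% with GC correction, and 3.64% and 5.46% without mutant replicate 2. For the other settings here and below this share was not counted, so their member counts cannot be set against a background. The median log2 fold change of the members ranged from -0.0039 (without mutant replicate 2) to 0.070 (without mutant replicate 1), and the number with a positive estimate from 35 to 46. Replicate numbers are labels only, since deviations of same-numbered libraries correlated at -0.19 to 0.035.

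Alternatives chosen after seeing the data gave 2 higher members with length over all coding transcripts, 2 lower with GC content over all coding transcripts, and, with GC correction and without mutant replicate 2, 1 higher, 3 lower and a median of -0.00024. Class medians near zero changed sign. TRAPP was 0.015 without the TMM factor and 0.0047 with length correction. GC correction, with or without the replicate block, gave -0.012 for exit site organisers, -0.031 for *Sec22*, 0.0032 for ARF, -0.0085 for golgins and -0.047 for *Mia3*; over all coding transcripts golgins were -0.0041 and *Mia3* -0.037. With GC correction and without mutant replicate 2, COPII was -0.0046, exit site organisers -0.0012, *Sec22* -0.0078, golgins -0.014, *Mia3* -0.015 and *Sec22b* -0.00024. Leaving out single libraries gave TRAPP -0.029 to 0.014, *Sec22* -0.010 to 0.085, golgins -0.0056 to 0.056, *Mia3* -0.0030 to 0.065 and *Copg1* -0.0062 to 0.044. The causes were not tested. Depth limits *Sec31b*, which rests on 27 to 69 reads per library.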
